A study of Mus musculus with 2 samples.

Results

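The genes described here encode the enzymes and carriers that cells use against peroxides and other oxidants: superoxide dismutases, peroxiredoxins, glutathione peroxidases, the glutathione-making and glutathione-using enzymes, thioredoxins, glutaredoxins and their relatives. They were taken by gene symbol, and 51 of the 11262 genes in the deposited table carry such a symbol. Both groups were untreated embryos of C57BL/6 mice (C57BL/6N in the study's methods), whose females were superovulated with gonadotropins before mating. One-cell embryos were collected from the oviduct, freed of granulosa cells with hyaluronidase and cultured in KSOM, an embryo medium, until the late one-cell stage, when acid Tyrode's solution dissolved the zona pellucida and trypsin with pipetting detached the second polar body (PB2), the small cell that the egg sheds as it completes meiosis after fertilization. Collected PB2s and collected zygotes each gave 1 library of amplified full-length cDNA. There were no replicates. Differences are therefore given without a test and describe these 2 libraries only.

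Superoxide dismutases turn superoxide into hydrogen peroxide. Peroxiredoxins and glutathione peroxidases then reduce the peroxide to water, and are themselves returned to the reduced state by thioredoxin or by glutathione, both of which draw their electrons from NADPH. The one-cell embryo relies largely on transcripts stored by the oocyte, and its glutathione is likewise laid down mostly during oocyte growth and maturation.

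Values are TPM, a measure of transcript abundance that corrects for gene length and scales each library to the same total. They are proportions, and the number of reads behind a value is unknown. In pooled material of this kind, fewer cells of a type and less RNA per cell cannot be told apart. The difference of a gene is given as a log2 ratio, log2((PB2 TPM + 1)/(zygote TPM + 1)), positive where PB2 was higher, and was taken over the 10645 genes with at least 1 TPM in either library. The added 1 shrinks the ratio of genes with low values. Over all genes the median log2 ratio was 0.21, so a gene at 0 lay below the middle of the table and any log2 ratio between 0 and 0.21 turned negative once centred on that median. Both libraries carried the oocyte markers, with 17 of 17 at 1 TPM or more in each and summed values of 40618.9 (PB2) and 49894.4 TPM (zygote). The most abundant of these were Oosp1 (10495.6 and 13021.0 TPM in PB2 and zygote), Dppa3 (8070.2 and 22561.9 TPM) and H1foo (9334.2 and 5428.3 TPM). Of 22 markers of cumulus and granulosa cells, which surround the egg, 7 were in the table and summed to 194.9 (PB2) and 255.3 TPM (zygote), led by Serpine2 (105.4 and 167.3 TPM), Cyp19a1 (70.9 and 72.2 TPM) and Nr5a2 (8.4 and 7.0 TPM). Cyp11a1, singled out after its value was seen, had 0.8 TPM in the PB2 library and was the only one of the 7 listed at 0 in the zygote library. Of 12 sperm markers 4 were in the table, at 41.6 and 31.4 TPM in sum, and of 12 blood cell markers only Cd68 was, at 5.3 and 3.6 TPM. The part of such cells in the results below was not tested.

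Redox defense transcripts took a slightly smaller share of the PB2 library than of the zygote library. Their TPM summed to 5481.8 in PB2, or 0.548% of a full library, and to 7098.0 in the zygote, or 0.710%, a PB2 to zygote ratio of 0.772. Most of that gap lay in the 3 most abundant genes, the peroxiredoxins Prdx1 and Prdx2 and the superoxide dismutase Sod1, which together held 2213.6 TPM in PB2 against 3673.2 in the zygote. Without these 3 the sums were 3268.2 and 3424.8 TPM, a ratio of 0.954. The typical member was expressed above the typical gene of the table, with medians of 24.4 (PB2) and 23.2 TPM (zygote), where all genes had medians of 11.1 and 8.70 TPM. The 10 most abundant members held 75.9% of the members' TPM in PB2 and 82.6% in the zygote, and 9 of the 10 were the same genes. The gene that was not shared was Gpx3 in PB2 and Gpx6 in the zygote.

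**Figure D1:**
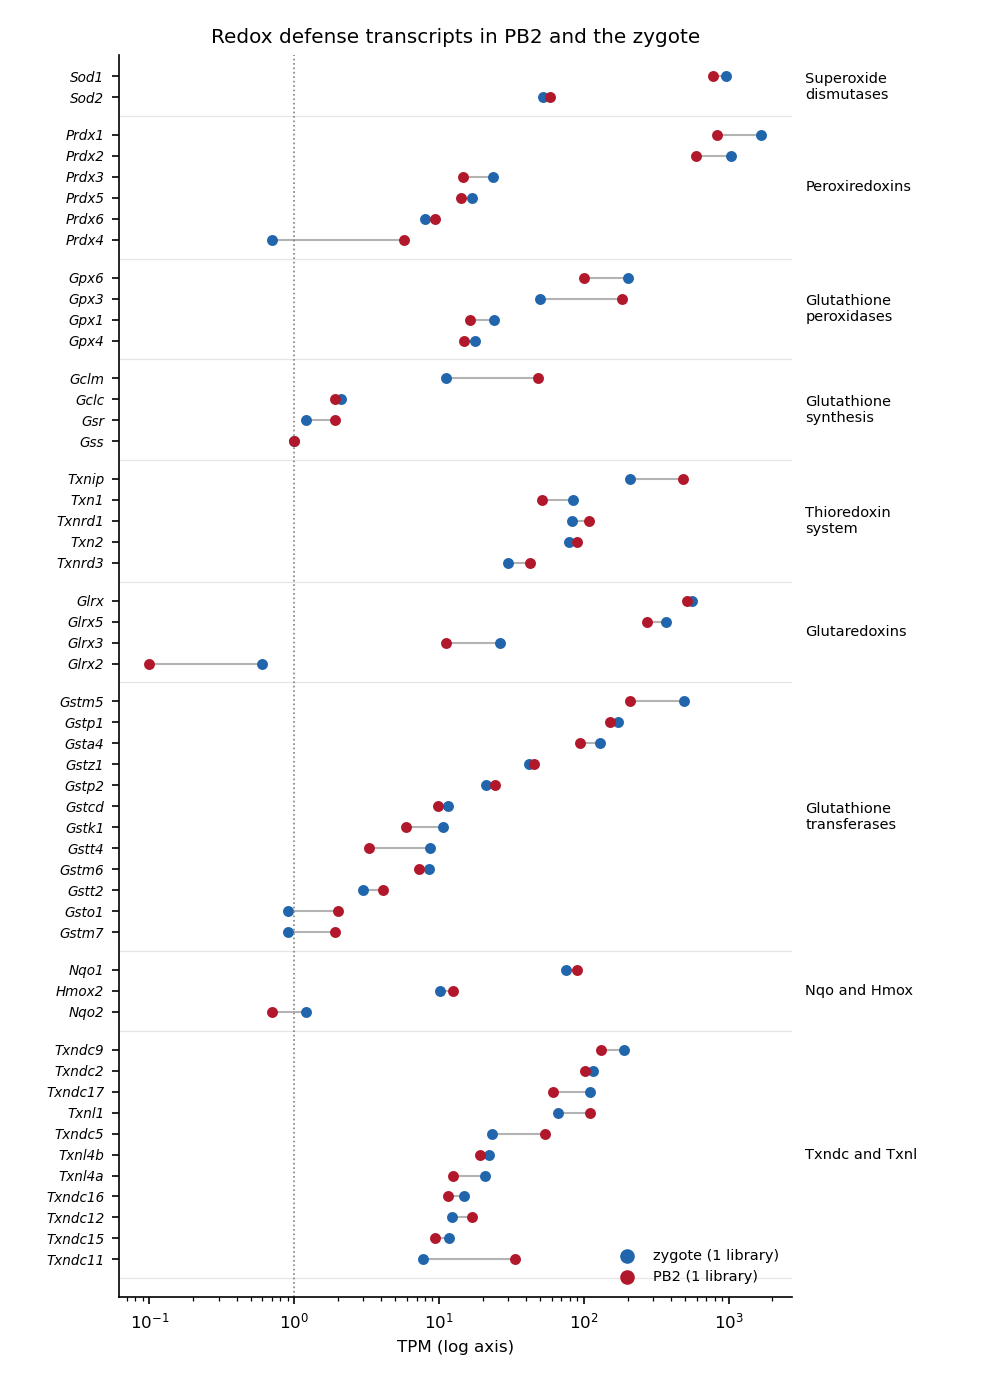
TPM of the 51 redox defense genes (log axis), 1 row a gene and grouped by role, with a red point for PB2, a blue point for the zygote and a line joining them (1 library each, no error bars). The dotted line marks 1 TPM. Prdx1, Prdx2 and Sod1 lie furthest to the right, and the points of Prdx4, Gclm, Txndc11 and Gpx3 are well apart with PB2 on the right.

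Among the 50 members compared, 6 had PB2 values 2-fold or more above the zygote, which is 12% of them, where 18.9% of all genes compared passed the same threshold. Another 4, or 8%, passed 2-fold towards the zygote, against 8.09% of all genes. The 6 were Gclm, Txndc11, Prdx4, Gpx3, Txnip and Txndc5, and the 4 were Gstm5, Glrx3, Gstt4 and Prdx1. The other 40 did not pass 2-fold on this scale. Of these, Gsto1 (2.0 and 0.9 TPM) and Gstm7 (1.9 and 0.9 TPM) were 2.22-fold and 2.11-fold higher in PB2 by their TPM alone and stayed under the threshold through the added 1. Rounding alone allows ratios from 2.05 to 2.41 for Gsto1 and from 1.95 to 2.29 for Gstm7, so Gstm7 may lie under 2-fold. With 0.1 added in place of the 1 both passed, Gstm7 exactly at 2-fold. This made 8 members towards PB2 and 4 towards the zygote, against 24.6% and 10.3% of all genes. The median log2 ratio of the members was -0.18, with a range from -1.23 to 2.03, and 21 members were above 0, 28 below and 1 at 0. When every log2 ratio was centred on the median of all genes, 4 members passed 2-fold towards PB2 and 7 towards the zygote, against 13.0% and 12.1% of all genes, so the balance of the members depended on the centring. At a threshold of 1.5-fold 9 and 11 members passed towards PB2 and towards the zygote, against 34.2% and 18.1% of all genes, and at 4-fold 1 and 0, against 2.48% and 0.695%. The 1 was Gclm, while Prdx4 (8.14-fold) and Txndc11 (4.35-fold) were past 4-fold by their TPM alone and stayed under it through the added 1. Glrx2, a mitochondrial glutaredoxin, had 0.1 TPM in PB2 against 0.6 in the zygote and was not compared. Catalase, which the symbols also cover, was not analysed here.

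**Figure D2:**
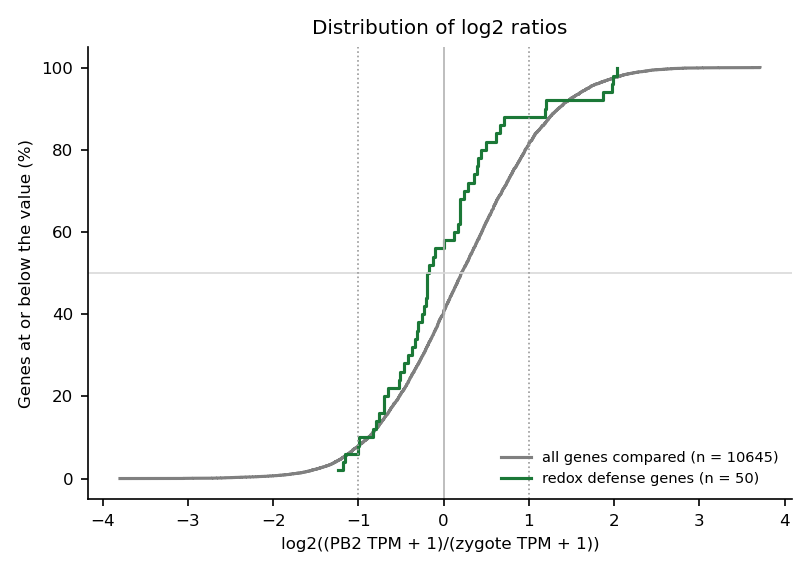
Cumulative percent of genes (vertical axis) at or below each log2 ratio of PB2 over zygote (horizontal axis), for the 10645 genes compared (grey) and the 50 redox defense genes (green), with dotted lines at 2-fold. The members centre at a median of -0.18 and all genes at 0.21.

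Of the 16 members that reached 100 TPM in one or both libraries, 12 had the higher value in the zygote and 4 in PB2, with a median log2 ratio of -0.36. Among all 1641 genes of that abundance 49.1% had the higher value in the zygote, and the median was 0.02. The 23 members between 10 and 100 TPM had a median of -0.20, and the 11 members between 1 and 10 TPM one of 0.19, where all genes of these classes had medians of 0.24 and 0.25. Each library ordered the members much alike, with a Spearman correlation of 0.94 over 51 genes, next to 0.92 over all genes. Genes of one library share its amplification and its total, so this is a description only.

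**Figure D3:**
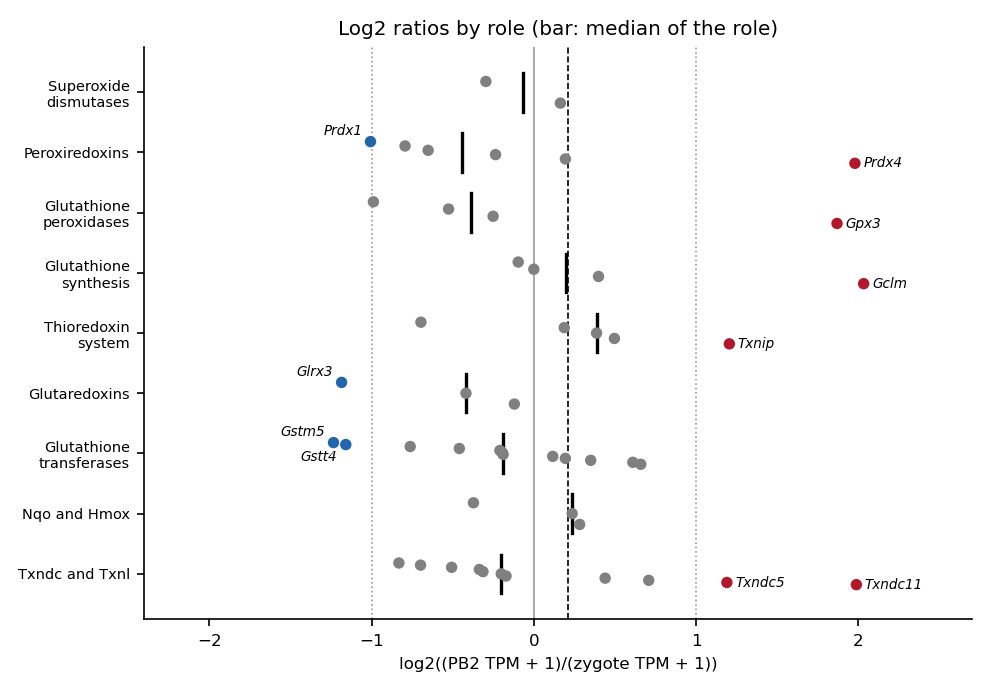
Log2 ratio of PB2 over zygote of each redox defense gene compared, grouped by role, with bars at the median of each role. Red points passed 2-fold towards PB2 and blue points towards the zygote. The dotted lines mark 2-fold and the dashed line the middle of all genes (0.21). No role has all of its genes past 2-fold in one direction.

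The superoxide dismutases were close to even between the libraries. Sod1, the copper and zinc enzyme of the cytosol, had 782.7 TPM in PB2 against 960.8 in the zygote (log2 ratio -0.30). Sod2, the manganese enzyme of mitochondria, had 58.7 and 52.3 TPM (0.16). Cytosolic enzyme transcripts thus outnumbered the mitochondrial ones 13.3 to 1 in PB2 and 18.4 to 1 in the zygote.

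The peroxiredoxins reduce hydrogen peroxide through a cysteine of their own, and their genes split between the libraries. Prdx1, a main cytosolic peroxiredoxin, had 836.1 TPM in PB2 against 1680.8 in the zygote, 2.01-fold higher in the zygote (log2 ratio -1.01, just past 2-fold). It was the most abundant member in both libraries, ranking 141 in the PB2 list and 77 in the zygote list of all genes of the table. Prdx1 lies on chromosome 4 of GRCm38, from 116685544 to 116700822 on the plus strand. A processed copy, Gm21399, matches its transcript at 98% identity or more over 26.0% of the length, so part of its reads is uncertain. Prdx2, the close relative of Prdx1 in the cytosol, had 594.8 and 1031.6 TPM (-0.79). The proteins of these 2 genes are identical at 74.7% of aligned residues by the translated coding sequences. Prdx1 stood above Prdx2 by 1.41 times in PB2 and 1.63 times in the zygote. Prdx3, the mitochondrial peroxiredoxin, had 14.6 and 23.5 TPM (-0.65).

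Prdx4 went the other way. This peroxiredoxin works in the endoplasmic reticulum (ER), where it takes up peroxide made during disulfide formation, and its transcripts were at 5.7 TPM in PB2 against 0.7 in the zygote (log2 ratio 1.98). The zygote value is near the last decimal of the table, and rounding alone allows PB2 to zygote ratios from 7.53 to 8.85. Prdx4 lies on chromosome X, from 155323918 to 155340754 on the minus strand. Its protein has 274 residues, and of the 198 aligned with Prdx1 66.7% are identical. Prdx5, found in mitochondria, peroxisomes and the cytosol, had 14.2 and 16.9 TPM, and Prdx6, which uses 1 cysteine and also acts on phospholipids, had 9.3 and 8.0 TPM. Exons of Prdx5 overlap those of Trmt112 on the opposite strand over 19.1% of their bases, and Trmt112 had 319.8 and 346.6 TPM. Whether strand was used in counting is not given in the sources used here, and without it reads of such pairs cannot be told apart. The 6 peroxiredoxins together summed to 1474.7 TPM in PB2 against 2761.5 in the zygote.

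The glutathione peroxidases reduce peroxides with glutathione, and the most abundant one differed between the libraries. Gpx3, the secreted form, had 184.1 TPM in PB2 against 49.7 in the zygote, 3.70-fold higher in PB2 (log2 ratio 1.87). Gpx6, its closest relative here, had 100.5 and 200.4 TPM (-0.99), just short of 2-fold to the zygote. Gpx3 was 1.83 times Gpx6 in PB2, whereas Gpx6 was 4.03 times Gpx3 in the zygote. The other 2 were lower. Gpx1, the cytosolic and mitochondrial enzyme, had 16.3 and 23.9 TPM (-0.53), and Gpx4, which reduces lipid peroxides inside membranes, had 14.8 and 17.8 TPM (-0.25). Both have GC-rich transcripts, and once the trend on GC content was taken out their log2 ratios were -1.35 and -1.21, past 2-fold towards the zygote. A processed copy, Gpx4-ps2, matches the Gpx4 transcript at 98% identity or more over 73.7% of its length, so Gpx4 is uncertain.

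Gpx3 and Gpx6 also differ at the catalytic residue. Gpx1, Gpx3 and Gpx4 use selenocysteine, which is written by an internal UGA codon that elsewhere ends translation, while mouse Gpx6 has cysteine there. The stretches below are coding DNA from GENCODE M21 transcripts (GRCm38), 5′ to 3′, and are shown because they mark the pair that exchanged rank. Capitals mark the selenocysteine codon, and in Gpx6 the cysteine codon aligned with that of Gpx3. Here and in the later stretches codons are counted in the longest coding transcript of each gene, and their numbers can differ in other transcripts. Gpx1 lies at chr9:108338903-108340343, Gpx3 at chr11:54902453-54910377, Gpx4 at chr10:80047166-80056439 and Gpx6 at chr13:21312125-21319624, all on the plus strand, and the capitals are codons 47, 73, 129 and 73 in that order.
Gpx1: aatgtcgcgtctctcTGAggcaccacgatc
Gpx3: aacgtagccagctacTGAggtctgacagac
Gpx4: aacgtggcctcgcaaTGAggcaaaactgac
Gpx6: aacgtggcatccttcTGTggcctgacagct
The Gpx3 and Gpx6 proteins are identical at 66.5% of aligned residues, and Gpx1 and Gpx4 at 40.6% of 170 aligned residues, out of 201 and 253. Among all 51 members 5 are annotated as selenoproteins, these 3 peroxidases and the thioredoxin reductases Txnrd1 and Txnrd3, of which 3 had the higher value in PB2 and the other 2 in the zygote.

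In glutathione synthesis 1 gene stood apart. Glutamate-cysteine ligase makes the first and limiting step and is built from a catalytic subunit, Gclc, and a modifier subunit, Gclm, which makes the enzyme more active and less open to feedback inhibition by glutathione. Gclm had 48.5 TPM in PB2 against 11.1 in the zygote, 4.37-fold higher in PB2 and with the largest log2 ratio of all members compared (2.03). That rank depended on the scale. Prdx4 was above Gclm with 0.1 added (2.86 against 2.12) and with the length trend removed (2.27 against 1.69). Gclc was low in both, at 1.9 and 2.1 TPM (-0.10). The modifier transcripts therefore stood at 25.5 times the catalytic ones in PB2 and 5.29 times in the zygote. Gclm lies on chromosome 3, from 122245557 to 122270732 on the plus strand, and shares 4.71% of its exonic bases with an antisense transcript and 3.88% with a pseudogene on its own strand. Gss, which completes glutathione, had 1.0 TPM in both libraries, and Gsr, which returns oxidized glutathione to the reduced form with NADPH, had 1.9 and 1.2 TPM (0.40). Apart from Gclm, then, the genes that make and recycle glutathione were near 1 or 2 TPM in both libraries.

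In the thioredoxin system the carrier and its binding protein went opposite ways. Txn1, the cytosolic thioredoxin, had 51.6 TPM in PB2 against 84.2 in the zygote (log2 ratio -0.70). Txnip, an arrestin-family protein that binds reduced thioredoxin and also lowers glucose uptake, had 482.4 and 208.7 TPM, 2.31-fold higher in PB2 (1.20). Per transcript of Txn1 there were 9.35 of Txnip in PB2 and 2.48 in the zygote. Txnip lies at chr3:96557957-96561883 on the plus strand, and 19.4% of its exonic bases overlap an antisense gene, so part of its reads is uncertain. After centring on the median its log2 ratio was just under the threshold.

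The other 3 genes of the system were within 2-fold. The mitochondrial thioredoxin Txn2 had 89.3 and 78.3 TPM (0.19). Txnrd1, the cytosolic reductase that recharges thioredoxin, had 108.3 and 82.6 TPM (0.39), which was 2.10 times Txn1 in PB2 and 0.981 times Txn1 in the zygote. Txnrd3, a reductase with an added glutaredoxin domain known from testis, had 42.6 and 29.9 TPM (0.50). Their catalytic codons are shown as coding DNA from GENCODE M21, 5′ to 3′, with capitals on the paired cysteine codons of the thioredoxins (codons 32 and 35 of Txn1, 90 and 93 of Txn2) and on the selenocysteine codon of the reductases (612 and 614). In the reductases it is followed by ggt or ggc and then the stop codon. Txn1 is at chr4:57943373-57956411 and Txn2 at chr15:77915047-77929006, both on the minus strand, and Txnrd1 is at chr10:82833951-82897712 and Txnrd3 at chr6:89643988-89675529, both on the plus strand.
Txn1: gctacgtggTGTggacctTGCaaaatgatc
Txn2: gcacagtggTGTggccccTGCaagatccta
Txnrd1: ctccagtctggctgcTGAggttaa
Txnrd3: actcagaaaggctgcTGAggctag

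Glutaredoxins use glutathione to undo mixed disulfides on proteins or to carry iron-sulfur clusters, and their genes were even or higher in the zygote. Glrx, which has the paired active-site cysteines that reduce glutathione-bound proteins, was among the most abundant members, with 516.4 TPM in PB2 against 561.3 in the zygote (log2 ratio -0.12). Glrx5, which has 1 active-site cysteine and serves iron-sulfur cluster assembly in mitochondria, had 274.1 and 366.6 TPM (-0.42). Glrx3, a cytosolic protein that also handles iron-sulfur clusters, had 11.1 and 26.5 TPM, 2.39-fold higher in the zygote (-1.18). A processed copy, Gm12669, matches the Glrx3 transcript at 99.1% identity over 28.0% of its length, so part of the Glrx3 reads is uncertain. The ratio of Glrx to Glrx3 was 46.5 in PB2 and 21.2 in the zygote. The active-site stretches, again from GENCODE M21, set the paired form beside the single one, with the cysteine codons in capitals (codons 23 and 26 of Glrx, 161 of Glrx3, in the first of its 2 glutaredoxin domains, and 63 of Glrx5). Glrx lies at chr13:75839868-75850154, Glrx3 at chr7:137437614-137468594 and Glrx5 at chr12:105032688-105042906, all on the plus strand.
Glrx: aagcccaccTGCccctacTGCagaaagacc
Glrx3: gaaccacgcTGTggtttcagcaagcagatg
Glrx5: cagccccagTGCggcttcagcaacgccgtg

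Glutathione transferases join glutathione to electrophiles, and of the 12 compared 2 passed 2-fold towards the zygote and 0 towards PB2, with a median log2 ratio of -0.19. Over all genes 8.09% and 18.9% passed in these directions, and the median was 0.21. With 12 genes such counts are too small to set apart from these shares. The 0 towards PB2 rests on the added 1, since Gsto1 and Gstm7 passed with 0.1 added, Gstm7 exactly at 2-fold. Gstm5, a mu-class enzyme and the most abundant of them, had 207.7 TPM in PB2 against 490.0 in the zygote (2.36-fold, log2 ratio -1.23). Gstt4, of the theta class, had 3.3 and 8.6 TPM (2.61-fold, -1.16). Gstm5 lies at chr3:107895821-107898686 on the plus strand, where 13.9% of its exonic bases overlap an antisense gene, and Gstt4 at chr10:75814943-75822543 on the minus strand. Other mu-class genes did not share the size of the Gstm5 difference. Gstm6 had 7.3 and 8.5 TPM and Gstm7 1.9 and 0.9 TPM, and their proteins match Gstm5 at 66.5% and 67.4% of aligned residues.

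Gstp1, the abundant pi-class enzyme, had 151.0 TPM in PB2 against 172.3 in the zygote, and Gstp2 had 24.4 and 21.2 TPM. Their coding sequences are identical at 98.1% of bases, so the division of reads between them is uncertain. A processed copy, Gstp-ps, also matches 79.2% of the Gstp2 transcript. Gsta4, which acts on 4-hydroxynonenal from lipid peroxidation, had 93.5 and 128.9 TPM (-0.46). Gstz1, an isomerase of tyrosine breakdown, was even at 45.4 and 41.8 TPM. The rest were under 12 TPM in both libraries: Gstk1, found in mitochondria and peroxisomes, with 5.9 and 10.7 TPM (-0.76), Gstcd with 9.9 and 11.6 TPM, Gstt2 with 4.1 and 3.0 TPM, and Gsto1, which also reduces dehydroascorbate, with 2.0 and 0.9 TPM.

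The quinone reductases and heme oxygenase were within 2-fold. Nqo1, which reduces quinones with NADH or NADPH and is a classic target of the transcription factor Nrf2, had 89.1 TPM in PB2 against 75.5 in the zygote (log2 ratio 0.24). Nqo2 had 0.7 and 1.2 TPM (-0.37). Hmox2, the constitutive heme oxygenase, had 12.5 and 10.1 TPM (0.28), but 40.2% of its exonic bases overlap Cdip1 on the opposite strand, and Cdip1 had 30.3 and 7.4 TPM.

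Thioredoxin-domain proteins of the ER supplied the remaining 2 genes higher in PB2. Txndc11, a membrane protein of the ER known as a partner of the dual oxidases, had 33.5 TPM in PB2 against 7.7 in the zygote (4.35-fold, log2 ratio 1.99). Txndc5, a protein disulfide isomerase of the ER lumen, had 54.2 and 23.2 TPM (2.34-fold, 1.19). Txndc11 lies at chr16:11074911-11134650 and Txndc5 at chr13:38500079-38528824, both on the minus strand. Exons of Txndc5 share 4.99% of their bases with Bmp6 on the opposite strand, and Bmp6 itself had 74.4 and 22.4 TPM. The ER proteins Txndc12 (16.9 and 12.2 TPM, 0.44) and Txndc16 (11.6 and 14.9 TPM, -0.34) were within 2-fold, as was the membrane protein Txndc15 (9.3 and 11.8 TPM).

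The cytosolic members of this class were also within 2-fold. Txndc9, which acts with the chaperonin that folds tubulin and actin, was the most abundant at 132.2 TPM in PB2 against 188.2 in the zygote (-0.51). Txndc17, a small thioredoxin-like protein, had 61.1 and 109.5 TPM (-0.83), and Txnl1, a partner of the proteasome, had 109.6 and 66.7 TPM (0.71). Txnl4a and Txnl4b, which belong to the splicing machinery rather than to redox defense, had 12.5 and 20.9 TPM (-0.70) and 19.1 and 22.1 TPM (-0.20). Txndc2, a thioredoxin known from spermatids, stood at 102.1 and 115.1 TPM (-0.17), above the summed sperm markers of either library. The most abundant of those were Prm2 (22 and 19.8 TPM), Odf2 (17.9 and 9.5 TPM) and Acrv1 (1.1 TPM in both).

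Transcript GC content moved with the log2 ratio over the whole table, with a Spearman correlation of 0.44 over 10629 genes, and hardly over the members, where it was 0.089 over 50 genes. Points of one library share its amplification, and the part of GC content in the results was not tested beyond removing its trend. Gclm has a GC content of 42.1% and Gpx3 one of 56.0%. With the trend on GC content removed, the log2 ratio of Gclm was 2.25 and that of Gpx3 1.12, both still past 2-fold, while Txndc5 (0.72) and Prdx1 (-0.80) were not. On that scale 6 members passed 2-fold towards PB2 and 10 towards the zygote, against 9.06% and 11.0% of all genes. The members' median was then -0.31, next to 0.009 over all genes, so most of the gap to the median of all genes remained. Transcript length had a correlation of 0.29 with the log2 ratio over the members and 0.17 over all genes. The members' transcripts were shorter, with a median of 1693 bases against 3065. With the length trend removed 4 members passed towards PB2 and 3 towards the zygote, against 12.1% and 11.7% of all genes. The members' median was then -0.096, next to 0.003 over all genes, so most of the gap between these medians closed. The part of length was not tested further.

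**Figure D4:**
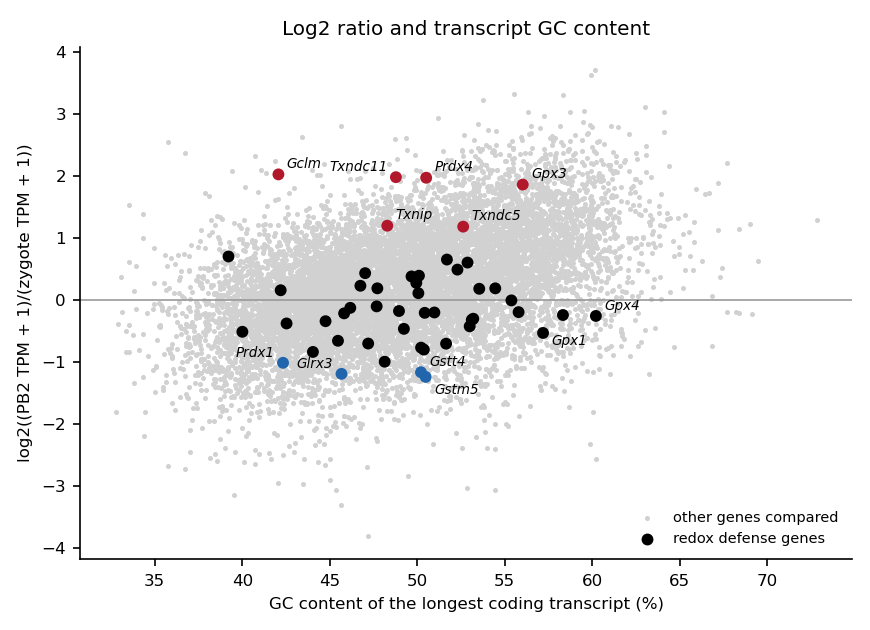
Log2 ratio of PB2 over zygote against the GC content of the longest coding transcript, for the redox defense genes (large points, red past 2-fold towards PB2, blue past 2-fold towards the zygote, black neither) and the other genes compared (grey). The grey cloud climbs with GC content, whereas Gclm is past 2-fold at a GC content of 42.1%.

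Many genes of this defense are regulated by Nrf2, which binds the antioxidant response element, and the promoters were searched for its core, TGACNNNGC, on both strands (GCNNNGTCA on the other). The search covered the 250 bases before each RefSeq gene start (GRCm38.p6), and 44 of the 51 members had a promoter entry. The letters were found in 9 of these 44 genes, or 20.5%, next to 11.5% of 27025 genes with a promoter and 13.8% of the 8911 of them in the table. A gene counted if any of its promoters matched, and genes differ in their number of promoters. By promoter the shares lay closer: 13.8% of 65 for the members, 10.2% of 32851 for all genes and 11.6% of 11399 for those in the table. They were found in 3 of the 6 members past 2-fold towards PB2, in 2 of the 4 past 2-fold towards the zygote and in 4 of the 33 that passed in neither direction. By promoter these were 3 of 9, 2 of 4 and 4 of 48. The share among all genes past 2-fold was not taken, so whether the letters go with a difference between the libraries was not tested. A match is a run of letters, not a bound site, and a gene without a match may carry the letters outside the 250 bases, which were not searched. The windows of 4 of the genes past 2-fold are shown on the strand of the gene, 5′ to 3′, with the match in capitals, since they include genes higher in PB2 and genes higher in the zygote. They lie at chr3:122245413-122245441 (Gclm, plus strand), chr16:11134755-11134782 (Txndc11, minus strand), chr4:116685456-116685484 (Prdx1, plus strand) and chr3:107895802-107895830 (Gstm5, plus strand). The match in each lies before the RefSeq start of the gene.
Gclm: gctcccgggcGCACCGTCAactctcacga
Txndc11: gtggaaggcTGACGCGGCcgcgagtgct
Prdx1: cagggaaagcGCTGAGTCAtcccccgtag
Gstm5: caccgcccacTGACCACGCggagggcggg

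The genes around this defense, 96 others in 8 lists written by hand, were compared in the same way. Of the 95 compared, 19 passed 2-fold towards PB2 (20%) and 9 towards the zygote (9.47%), beside 18.9% and 8.09% of all genes, and their median log2 ratio was 0.10. This balance turned with the scale, and the shares of all genes moved as well. The counts were 14 and 15 after centring, against 13.0% and 12.1% of all genes. With the GC trend removed they were 9 and 15, against 9.06% and 11.0%. The same shares of all genes belong beside the counts of the single lists below. The list of NADPH supply, the source of electrons for glutathione and thioredoxin, had 5 of 15 genes past 2-fold towards PB2 and 1 towards the zygote, with a median of 0.60. After centring the counts were 2 and 1, and with the GC trend removed they were again 2 and 1, with a median of 0.17. G6pdx, the entry enzyme of the pentose phosphate pathway, had 655.6 TPM in PB2 against 253.3 in the zygote (1.37). Nadk, the kinase that makes NADP, had 92.7 and 33.0 TPM (1.46), and Shmt2, of mitochondrial one-carbon metabolism, had 114.0 and 54.5 TPM (1.05). With the GC trend removed Nadk stayed past 2-fold (1.03), whereas G6pdx (0.90) and Shmt2 (0.22) did not. Me1, the cytosolic malic enzyme, had 291.0 and 635.3 TPM (-1.12).

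Genes of selenoprotein synthesis and other selenoproteins had 4 of 16 past 2-fold towards PB2 and 2 towards the zygote, with a median of 0.42. The counts were 3 and 3 after centring, against 13.0% and 12.1% of all genes. With the GC trend removed they were 2 and 3, against 9.06% and 11.0%. Those past 2-fold towards PB2 included 3 that serve the insertion of selenocysteine. Eefsec, the elongation factor that delivers its tRNA, had 148.4 TPM in PB2 against 45.0 in the zygote (1.70), Sephs2, which makes the selenium donor, had 177.8 and 56.3 TPM (1.64), and Secisbp2, which binds the signal in selenoprotein messages, had 43.7 and 19.6 TPM (1.12). With the GC trend removed Sephs2 stayed past 2-fold (1.21), whereas Eefsec (0.92) and Secisbp2 (0.67) did not. Selenow and Selenok, small selenoproteins, were higher in the zygote, at 344.0 and 725.0 TPM (-1.07) and 222.7 and 466.4 TPM (-1.06).

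**Figure D5:**
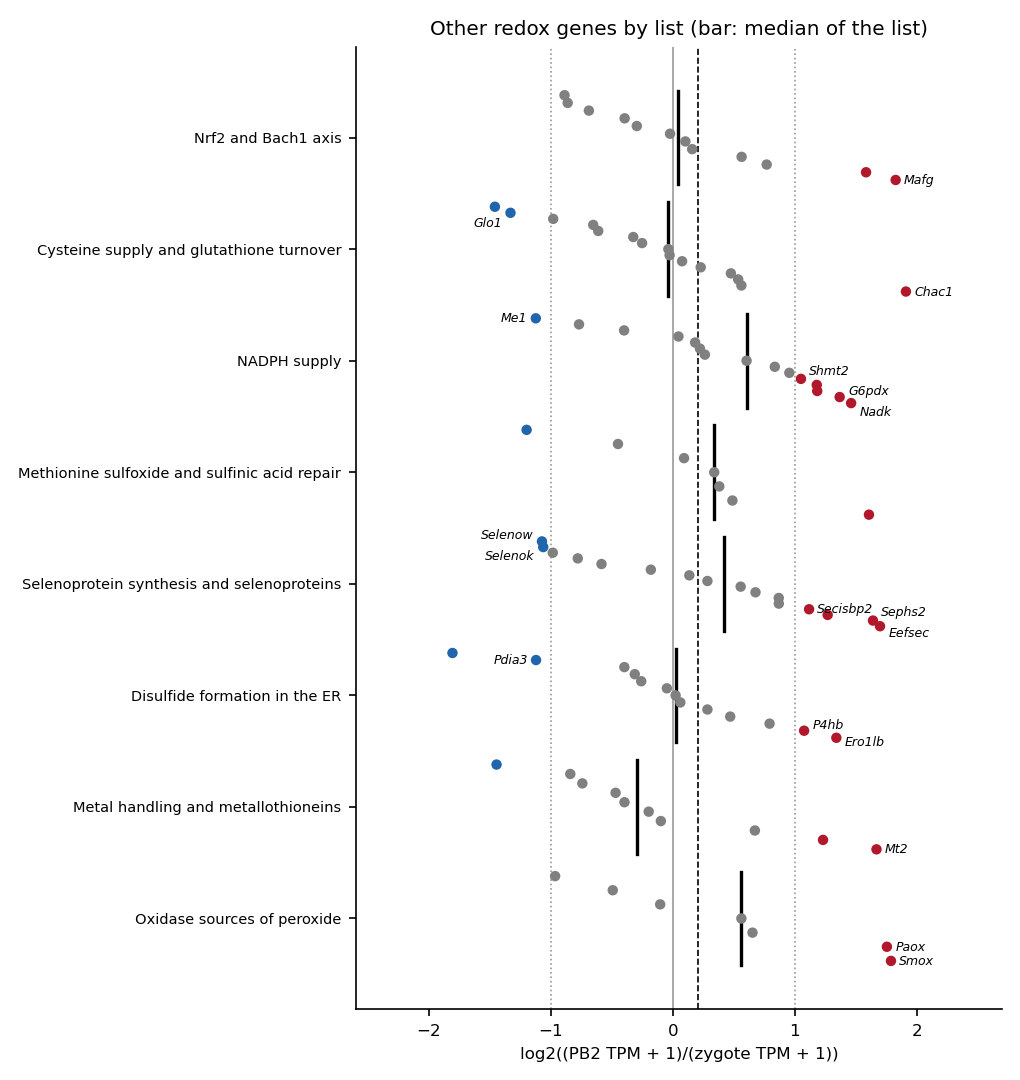
Log2 ratio of PB2 over zygote of 95 other redox genes in 8 lists, with bars at the median of each list. Red points passed 2-fold towards PB2 and blue points towards the zygote. The dotted lines mark 2-fold, the dashed line is the middle of all genes (0.21), and named genes reached 10 TPM in one of the libraries. The medians run from -0.30 for metal handling to 0.60 for NADPH supply.

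The remaining lists were short, and their counts stand beside 18.9% of all genes towards PB2 and 8.09% towards the zygote. In disulfide formation in the ER 2 of 13 passed 2-fold towards PB2 and 2 towards the zygote. Ero1lb, an oxidase that passes electrons to oxygen and makes peroxide, had 126.7 TPM in PB2 against 49.4 in the zygote (1.34), P4hb, the founding protein disulfide isomerase, 87.6 and 41.0 TPM (1.08), and Pdia3, a disulfide isomerase for glycoproteins, 76.1 and 166.8 TPM (-1.12). P4hb was within 2-fold after centring (0.87) and with the GC trend removed (0.51). Among oxidases that make peroxide 2 of 7 passed 2-fold towards PB2 and 0 towards the zygote, and both of the former degrade polyamines: Paox had 93.9 and 27.1 TPM (1.76) and Smox 46.7 and 12.8 TPM (1.79).

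In the Nrf2 and Bach1 list 2 of 12 passed 2-fold towards PB2 and 0 towards the zygote. Mafg, a small Maf partner of both factors, had 27.4 TPM in PB2 against 7.0 in the zygote (1.83). With the GC trend removed the counts of this list were 1 and 2, against 9.06% and 11.0% of all genes. For cysteine supply and glutathione turnover the counts were 1 of 15 in PB2 and 2 in the zygote. Chac1, which breaks glutathione down, had 19.7 and 4.5 TPM (1.91), and Glo1, which clears methylglyoxal with glutathione, 5.0 and 14.1 TPM (-1.33). Metal handling had 2 of 10 past 2-fold towards PB2 and 1 towards the zygote, among them the metallothionein Mt2 at 18.1 and 5.0 TPM (1.67). With the GC trend removed these counts were 0 and 3, and Mt2 was at 0.96. Repair of methionine sulfoxide and sulfinic acid had 1 of 7 in each direction, with no gene past 2-fold reaching 10 TPM, and 0 and 1 with the GC trend removed.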

How the data were processed

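PB2 and the zygote of one-cell mouse embryos were compared with 1 library each. According to the paper and the submitters' processing notes, bases were called with CASAVA, reads were aligned with HISAT2 2.0.4 and counted with HTSeq 0.6.1p1, and DESeq2 1.18.1 was used for normalization. The notes name the builds OryCun2.0, a rabbit assembly, and GRCm38, while the table carries mouse Ensembl gene identifiers. The authors deposited TPM values with 1 decimal. How these TPM were computed is not given in the sources used here, the depth is unknown and no counting interval is given. The table sums to 898326 TPM in PB2 and 927063 in the zygote, so some genes were not analysed here. The column named for the polar body was matched to PB2 and the column named for the one-cell embryo to the zygote, and 0 columns were left over.

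Members were taken by symbol (Gpx, Prdx, Txn, Glrx and Gst genes, Gclc, Gclm, Gsr, Gss, Sod, Cat, Nqo and Hmox genes). Members and lists were chosen with earlier results of these data known. Log2 ratios used a pseudocount of 1 and genes with at least 1 TPM in either library. Values are given for every member at least 2-fold apart, for the 10 most abundant members of each library and for the other members by role. Of the other redox genes, those at least 2-fold apart and reaching 10 TPM in one of the libraries are named, and of each marker list the 3 most abundant. Some of the genes overlapping or copying a member are named, for that reason, and others are not. The longest coding transcript of a gene in GENCODE M21 gave its GC content and length, and the same annotation gave positions, overlaps and coding sequences. Copies were stretches of at least 100 bases at 98% identity found with blastn. Trends were removed by loess with a span of 0.3. Promoters were from RefSeq (GRCm38.p6). The functions were tested on simulated data. The tools were Biopython 1.88, matplotlib 3.10.9, pandas 2.3.3, statsmodels 0.14.6, numpy 2.4.6, scipy 1.17.1 and Python 3.11.15. The alternatives were other pseudocounts, filters, scalings and thresholds, removal of the GC or length trend, and leaving out the Txndc and Txnl genes.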

Additional observations from a re-analysis of the deposited data

How the results depend on the processing

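No paired analysis was possible because each group has 1 library, and for the same reason no library could be left out. Of 489 results under 12 alternatives, 469 stayed within the limits used, 20 moved beyond them and 0 changed sign past the threshold. The limits were 1.5 times for a count, 0.2 on the log2 scale for a median or summed ratio, and 0.5 for a single gene. Part of this was fixed in advance. Another filter leaves the log2 ratio of a gene unchanged, centring shifts every gene by 0.21, and the zygote values were scaled by only 1.06. Single-gene values under these alternatives could not pass their limit, so the 469 do not measure stability. Centring on the median of all genes raised the members at least 2-fold higher in the zygote from 4 to 7, lowered the members' median to -0.39 and lowered that of the other redox genes from 0.10 to -0.11. Removing the GC trend gave 10 members higher in the zygote, and removing the length trend a median of -0.10 for the other redox genes. At 1.5-fold 11 members were higher in the zygote, and at 4-fold 1 was higher in PB2 (Gclm) and 0 in the zygote. By TPM alone Prdx4 and Txndc11 were past 4-fold towards PB2 as well. The fewer or more calls at another threshold follow from the threshold, and the cause of the other changes was not tested. Gclm, Gpx3, Prdx4 and Txndc11 passed 2-fold towards PB2, and Glrx3 towards the zygote, under all alternatives that kept the 2-fold threshold and the gene. The alternatives did not address reads shared with copies, such as the processed copy of Glrx3. Txnip and Txndc5 were within 2-fold after centring and after removal of the length trend, Txndc5 and Prdx1 after removal of the GC trend, and Gstm5 and Gstt4 after removal of the length trend. The depth is unknown, so what it limits cannot be stated, and values under 1 TPM are coarse because of the rounding. Of the 51 members, 18 share at least 100 bases at 98% identity with another gene, 3 of them over at least 50% of the transcript.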

Other observations

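After the values were seen, the members were grouped by the compartment their protein is known from, with no test. Of 7 members of the ER lumen, the ER membrane or the secreted proteins (Prdx4, Gpx3, Gpx6, Txndc5, Txndc11, Txndc12 and Txndc16), 4 passed 2-fold towards PB2 and 0 towards the zygote, with a median log2 ratio of 1.19 and summed values of 406.5 (PB2) and 308.8 TPM (zygote). Over all genes 18.9% and 8.09% passed in these directions. Of the summed values Gpx3 alone held 184.1 (PB2) and 49.7 TPM (zygote), and without it the sum was lower in PB2 than in the zygote. The list of disulfide formation in the ER, whose genes are not members, had 2 of 13 past 2-fold in each direction and a median of 0.02. Of 27 cytosolic members 1 passed 2-fold towards PB2 and 4 towards the zygote, with a median of -0.19 and sums of 3911.3 and 5791.1 TPM. The 4 mitochondrial members compared were all within 2-fold, with a median of -0.13. The groups held 7, 27 and 5 of the 51 members, and the others were placed in none. With log2 ratios centred on the median of all genes, the counts were 3 and 1 for the ER and secreted group and 1 and 6 for the cytosolic group, against 13.0% and 12.1% of all genes. With the GC trend removed they were 3 and 1, and 2 and 5, against 9.06% and 11.0% of all genes.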
